A study of Mus musculus with 2 samples.

Results

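The PEA3 and other ETS transcription factors described here are 10 genes of the ETS family: Etv4, Etv5 and Etv1, which make up the PEA3 group, and Etv6, Ets1, Ets2, Gabpa, Elf3, Elf5 and Ehf. The tissue was embryonic mouse lung of stage E13.5, when the airways are forming new branches. Members were the probe sets whose platform annotation gave exactly 1 gene symbol and whose symbol was among the 10. This gave 12 probe sets, 2 each for Etv5 and Etv1 and 1 for each other gene, out of 21789 probe sets with 1 symbol (19938 genes) and 35557 in all. The study compared a wild type group with a group whose genotype is given as an Etv4;5 knockout, also abbreviated CKO in a title and DKO elsewhere. Each group was 3 samples whose RNA was combined in equal amounts and hybridised to a single Affymetrix array, which left 2 arrays without replicates. A Cre line, the deleted part of either gene, the strain and the number of embryos per sample were not given in the sources used here.

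ETS factors share a DNA-binding domain that recognises a GGAA core, and differ in the other domains and in the signals that control them. In the developing lung, Etv4 and Etv5 are expressed in the epithelium of the distal buds, where fibroblast growth factor (FGF) from the mesenchyme acts through the receptor Fgfr2 and the kinase ERK to maintain them. Etv1 is their closest relative, and the question addressed here is whether it or another family member stood at a higher level in the pool labelled as the Etv4;5 knockout.

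No test across samples was possible with 1 array per group, and each difference below compares these 2 pools. Differences are knockout minus wild type on the deposited scale, which was read as log2 from its range. The scale holds an unknown share of background signal, so levels of different probe sets were not read as relative amounts of RNA. They were used only for percentiles, the cut at the median, matching by level, the brightest probe set of a gene, and marker sums. The array medians were 7.60 in wild type and 7.58 in knockout, and a probe set at or above its array's median on at least 1 array was taken as bright. The number of arrays limited the precision. As a measure of disagreement between probe sets, the 777 genes with 2 probe sets were used. The median gap between the differences of those probe sets was 0.04, and the 90th percentile was 0.20. Both probe sets share the same pools and arrays, so this gap does not measure the spread between pools or arrays. The pools also differed in sex-linked transcripts, with Xist at 12.34 in wild type and 5.74 in knockout and the Y-linked genes Uty, Kdm5d and Eif2s3y higher in knockout by 0.64, 0.53 and 0.53. The part of this difference in the ETS values was not tested.

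Of the 10 factors, the targeted gene Etv4 was furthest from equality, and the targeted gene Etv5 was lower by a smaller amount on both of its probe sets. Elf3 had the largest positive value, and all other members differed by 0.11 or less. No member reached a 2-fold difference (0 of 12 probe sets, against 0.0597% of all probe sets with 1 symbol). Etv4 alone passed 1.5-fold (1 of 12, against 0.266%). In all, 2 of the 12 probe sets were higher, 8 were lower and 2 held exactly the same value on both arrays, against 32.9%, 33.5% and 33.6% of all probe sets. With the arrays shifted to equal medians 4 were higher, since 2 equal values then counted as higher. Their median difference was -0.064, beside 0.000 over all probe sets. How 33.6% of probe sets came to hold exactly equal values on 2 arrays is not given in the sources used here. Exact equality, here and below, was therefore not read as a measured lack of difference. Equal values also enter the median of 0.000 and the shares over all probe sets. Lower values were more common among bright probe sets in general (47.1% of 12255), and 10 of the 12 member probe sets were bright, of which 7 were lower. Elf3 counted as bright only through its higher knockout value (7.75, against 7.50 in wild type), so this cut was not independent of the differences.

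**Figure D1:**
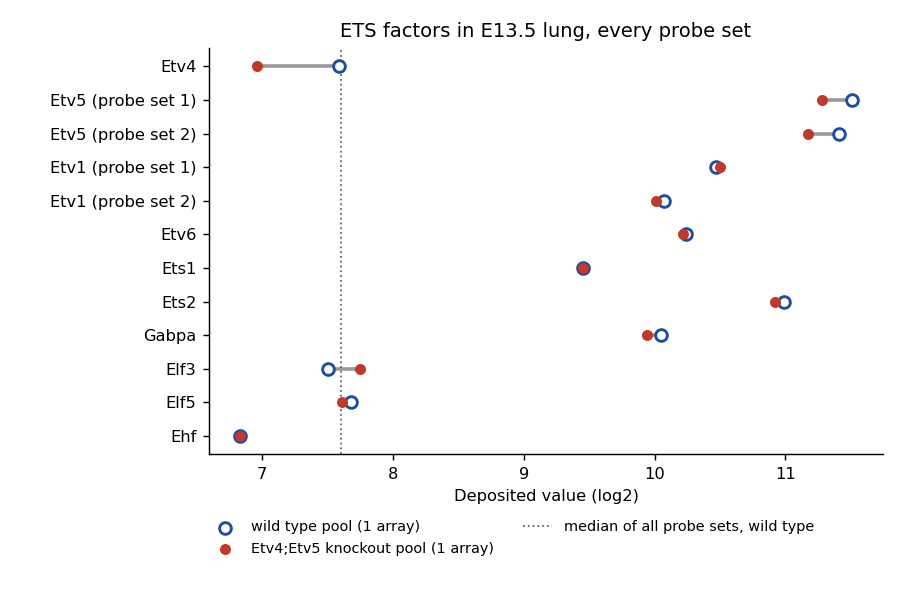
Deposited log2 value of each of the 12 probe sets on the wild type array (open blue) and the knockout array (filled red), joined by a grey line, with 1 array of pooled RNA per group and no error bars. Etv4 shows the widest separation (7.59 and 6.96), the Etv5 probe sets separate by 0.23 and 0.24, and the Etv1 symbols nearly coincide.

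Etv4, an ERK-responsive activator of the PEA3 group, was read by probe set 10391490. Its value was 7.59 on the wild type array and 6.96 on the knockout array, a difference of -0.63 (1.55-fold), so the knockout value was 64.6% of the wild type value on the linear scale. Only 21 of the 21789 probe sets (0.0964%) were at least this far down, Etv4 included. Among the 1647 probe sets whose mean level lay within 0.25 of that of Etv4, 0.668% differed at least this much in either direction. Both Etv4 values lay below the array medians, at the 49.8th percentile of the wild type array and the 39.4th percentile of the knockout array. The size of this difference therefore rests on a dim signal. Of the 9534 probe sets below both medians, 7 (0.0734%) were at least 1.5-fold lower.

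Etv5, the other targeted factor, was bright and lower on both probe sets. Probe set 10438626 stood at 11.51 in the wild type pool and 11.28 in the knockout pool, a difference of -0.23 that left 85.3% of the wild type value. Probe set 10363901 stood at 11.41 and 11.17, a difference of -0.24 that left 84.7%. These differences lay 0.01 apart, and 26.9% of genes with 2 probe sets had a gap no larger. Both probe sets of a gene were at least as low as -0.23 for 8 of the 777 genes (1.03%), Etv5 included, and at least as far up for 5. Within 0.25 of their level, 1.56% of 513 and 1.39% of 574 probe sets differed as much. A probe set outside the deleted part of a gene checks nothing, and whether this applies to Etv4 or Etv5 is not known from the sources used here. In whole-lung RNA, fewer cells of a type and less RNA per cell cannot be told apart.

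The numbering of the probe sets bears on which copy each one reads. Numbers on this array run along the chromosomes: only 683 probe sets (3.15%) named a gene on another chromosome than most of their 10 nearest numbered neighbours. Etv5 lies on chromosome 16 and Etv1 on chromosome 12, and the neighbours of 10438626 and of the Etv1 probe set 10395457 lay there too. By contrast, all 10 neighbours of the Etv5 probe set 10363901 were on chromosome 10, and all 10 neighbours of the Etv1 probe set 10406934 on chromosome 13. Whether these 2 probe sets also read a related copy elsewhere in the genome was not tested. The Etv5 value was as low without 10363901 (-0.23), whereas the only positive Etv1 value came from 10406934.

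Etv1, the third PEA3 factor, showed no separation between the pools beyond the spread between its own probe sets. Probe set 10406934 stood at 10.47 in the wild type pool and 10.50 in the knockout pool, a difference of 0.03. Probe set 10395457 stood at 10.07 and 10.01, a difference of -0.06. The signs were opposite, and the gap of 0.09 between the probe sets exceeded either difference. Differences at least as large as 0.03 and -0.06 in size were found in 49.5% and 36.6% of all probe sets. Set against Etv5, the Etv1 probe sets lay 0.17 to 0.27 higher, and 14.2% of genes with 2 probe sets had a gap of at least 0.17 between probe sets of the same gene. That share covers gaps within a gene and does not measure how often 2 different genes lie this far apart. The Etv1 values give no higher level of Etv1 in the knockout pool as a whole. Without replicates they set no limit on how large a difference could have been missed. They come from whole-lung RNA, so the Etv1 level in the distal bud epithelium alone was not measured.

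**Figure D2:**
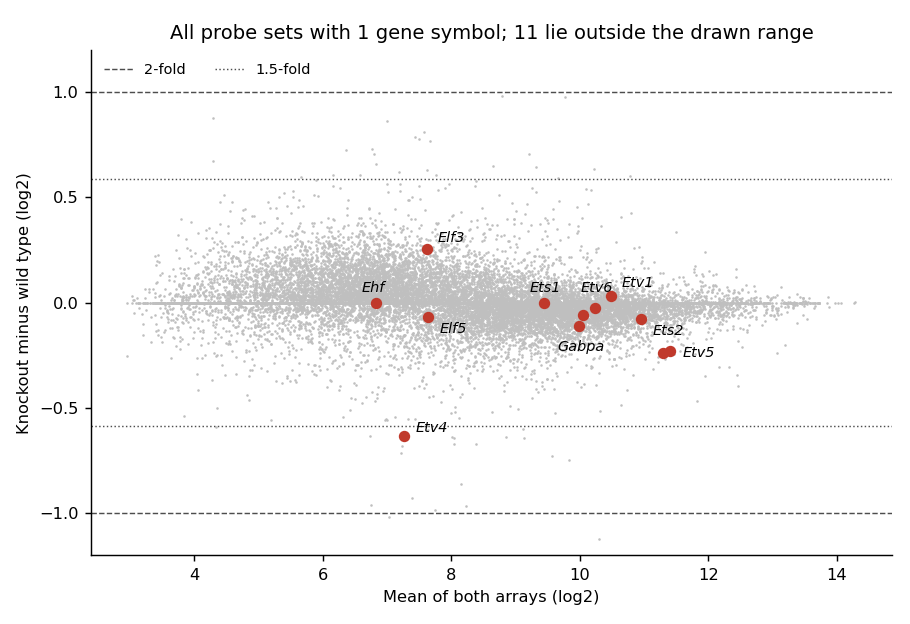
Difference between knockout and wild type (log2, vertical axis) against the mean of both arrays (log2, horizontal axis) for all probe sets with 1 gene symbol (grey), with the 12 ETS member probe sets in red and lines at 1.5-fold and 2-fold. Etv4 lies below the 1.5-fold line at -0.63, and the Etv5 probe sets lie at the lower edge of the bright probe sets.

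The upstream sequences of the PEA3 genes and of Elf3 are shown because ETS factors bind GGAA, and Etv5, Etv1 and Elf3 are the members on which the question of replacement turns. The 250 bases before each annotated start are given from RefSeq (GRCm38.p6), 5′ to 3′ on the strand of the gene, with each GGAA or its complement TTCC in capitals. Of the 10 members, 7 matched an entry, with 10 starts. Etv4, Ets1 and Ehf had none.
Etv5 outer start, chr16:22439571-22439820, minus strand: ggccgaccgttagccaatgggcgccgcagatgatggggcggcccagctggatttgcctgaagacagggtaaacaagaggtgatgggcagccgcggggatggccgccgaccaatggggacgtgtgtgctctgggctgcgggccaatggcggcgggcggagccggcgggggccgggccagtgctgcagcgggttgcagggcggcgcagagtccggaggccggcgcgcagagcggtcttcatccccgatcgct
Etv5 inner start, chr16:22438369-22438618, minus strand: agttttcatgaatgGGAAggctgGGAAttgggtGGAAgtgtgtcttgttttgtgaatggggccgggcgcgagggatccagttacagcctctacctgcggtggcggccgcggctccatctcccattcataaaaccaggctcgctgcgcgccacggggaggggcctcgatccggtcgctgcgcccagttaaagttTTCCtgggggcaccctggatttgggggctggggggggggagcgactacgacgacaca
Etv1 outer start, chr12:38779832-38780081, plus strand: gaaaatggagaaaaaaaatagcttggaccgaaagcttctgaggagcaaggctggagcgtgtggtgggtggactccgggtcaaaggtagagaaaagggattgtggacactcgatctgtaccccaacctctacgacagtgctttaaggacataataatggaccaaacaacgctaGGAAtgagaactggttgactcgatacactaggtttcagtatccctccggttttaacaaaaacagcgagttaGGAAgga
Etv1 inner start, chr12:38783461-38783710, plus strand: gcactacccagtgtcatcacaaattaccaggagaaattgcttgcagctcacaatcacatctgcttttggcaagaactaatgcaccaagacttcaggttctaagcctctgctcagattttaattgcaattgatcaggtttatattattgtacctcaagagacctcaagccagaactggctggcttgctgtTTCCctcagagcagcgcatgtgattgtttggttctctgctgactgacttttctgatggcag
Elf3, chr1:135258473-135258722, minus strand: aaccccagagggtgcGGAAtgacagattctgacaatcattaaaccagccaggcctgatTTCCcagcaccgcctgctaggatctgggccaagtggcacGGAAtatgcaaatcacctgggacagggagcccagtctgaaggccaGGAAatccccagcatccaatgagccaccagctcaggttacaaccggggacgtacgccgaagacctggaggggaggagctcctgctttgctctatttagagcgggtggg
The window of the outer Etv5 start held 0 matches to GGAA on either strand, and that of the inner start held 4. The Etv1 windows held 2 and 1, and the Elf3 window held 4. A GGAA match is common: 93.4% of 32851 such windows in the mouse held at least 1, with a median of 3. The longer motif CCGGAA, which contains GGAA, occurred on either strand in 12% of windows. Among the members it was found only upstream of Gabpa (1 match), and its extension CCGGAAGT, present in 2.88% of all windows, in none. A match describes letters in this window and not a bound site.

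The other broadly expressed members, Etv6, Ets1, Ets2 and Gabpa, were bright and stood close to equality. Etv6, a repressor also known as TEL, stood at 10.24 in wild type and 10.22 in knockout (-0.02). Ets1, which is prominent in endothelium and lymphoid cells, was at 9.45 on both arrays, exactly equal. Ets2, an effector phosphorylated downstream of Ras and ERK, was at 10.99 and 10.92 (-0.08). Gabpa, the DNA-binding subunit of a factor for mitochondrial and housekeeping genes, read 10.05 and 9.94 (-0.11). None of these 4 was higher in the knockout pool on the deposited values, although the sign of Etv6 was not kept over the other scalings and Ets1 reached 0.02. Differences at least as large as that of Gabpa were found in 20.7% of all probe sets, and for Ets2 in 30.1%. Gabpa and Ets2 lie on chromosome 16, as Etv5 does. So does Erg, a family member outside the 10, which differed by 0.03.

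The epithelial members Elf3, Elf5 and Ehf, which form the ESE group, went in different directions. Elf3, an epithelium-restricted activator, was at 7.50 in the wild type pool and 7.75 in the knockout pool, a difference of 0.26, which made the knockout value 119.4% of wild type. It was below the median on the wild type array and above it on the knockout array, and 511 probe sets (2.35%) were at least as far up. Among 1524 probe sets of similar level, 5.38% differed as much in either direction. Elf5, a factor of distal lung and mammary epithelium, was at 7.68 and 7.61 (-0.07). Ehf, found in many epithelia, was at 6.83 on both arrays, exactly equal and below both medians. On the deposited values only Elf3 of the group was higher, at a level near the array median, and the sign of Ehf was not kept over the other scalings.

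Markers of lung epithelium were higher in the knockout pool beside Elf3. Of 10 epithelial markers 9 were higher and 1 was equal, against 33.4% higher, 33.2% lower and 33.5% equal over all genes. All 10 are bright, and of 11058 bright genes 25.6% were higher, 47% lower and 27.4% equal. The list had a median of 0.109, with Krt18 at 0.47, Krt8 at 0.33 and Cdh1 at 0.19. Their summed level on the linear scale, expressed as log2, was 13.84 in wild type and 14.01 in knockout. The 10 single differences ranged from 0.00 to 0.47. Only those of Krt18 and Krt8 were above that of Elf3 (0.26), and Cldn7 came next at 0.22. The Elf3 value was thus above the list median of 0.109. Distal tip markers, which share their site of expression with Etv4, Etv5 and Elf5, were lower in 3 of 5, with a median of -0.306. Sftpc differed by -1.12, Sox9 by -0.32, Id2 by -0.31, Mycn by 0.09, and Bmp4 was equal. The summed level of the distal tip markers was 13.69 in the wild type pool and 13.41 in the knockout pool, a shift of -0.29. These sums are weighted towards the brightest probe sets. Other cell type markers differed between the pools as well. Smooth muscle markers were lower in 7 of 7 (median -0.223, summed level 14.06 and 13.92), mesenchyme markers in 8 of 9 with 1 equal (median -0.070, 14.48 and 14.33, Foxf1 at -0.40), and erythroid markers in 5 of 5 matched (median -0.245, 13.79 and 13.56). Mesothelial markers were higher in 4 of 6 and lower in 1 (median 0.054, 11.64 and 11.73). Of 4 matched neuron and neural crest markers, none of them bright, 1 was lower and 3 were equal (8.91 and 8.89). The part of the cell type content of the pools in the Elf3, Etv4 and Etv5 values was not tested.

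Differences in the rest of the ETS family were small and went both ways. Of 16 further genes listed, 15 were matched, by 16 probe sets, of which 5 were higher, 9 lower and 2 equal, with differences from -0.31 to 0.22 and a median of -0.024. Past 1.5-fold were 0 of these 16 and 0 of the 9 member probe sets other than Etv4 and Etv5, a count that the share of 0.266% over all probe sets also gives for sets of this size. The ternary complex factors Elk1, Elk3 and Elk4, which bring ERK signals to serum response elements, were lower by small amounts (-0.04, -0.02 and -0.07), and the sign of Elk3 was not kept over the other scalings. The repressors Erf and Etv3 differed by 0.07 and -0.03. Etv3l, a relative of Etv3 that was added after its value was seen, stood at 7.69 in wild type and 7.94 in knockout (0.25). The endothelial factors Erg and Fli1 differed by 0.03 and -0.10, while 7 of 9 endothelial markers were lower (4 with equal medians), with a median of -0.016.

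Spi1, Elf4, Etv3l and Spdef had the largest sizes in the rest of the family. Spi1, the myeloid factor PU.1, was at 7.39 in the wild type pool and 7.08 in the knockout pool, a difference of -0.31, the second lowest of the 29 ETS probe sets. Leukocyte markers were lower in 7 of 8, with a median of -0.062 and single values down to -0.17, and their summed level was 11.08 in wild type and 10.99 in knockout. The part of leukocyte content in the Spi1 value was not tested. Spib differed by 0.14 and Spic by -0.03, both far below the median. With a floor under dim values Spib differed by only 0.02, and the sign of Spic was not kept. Spdef, a factor of secretory epithelia, was at 7.50 and 7.72 (0.22). Among the ELF group, Elf1 was at 8.74 and 8.93 (0.19) and Elf2 at 9.92 and 9.83 (-0.09). The X-linked gene Elf4 gave -0.26 on its bright probe set (9.23 and 8.97) and equal values on its dim one (6.57). Etv2, the early endothelial factor, was at 6.67 on both arrays. Elk1 is X-linked as well.

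**Figure D3:**
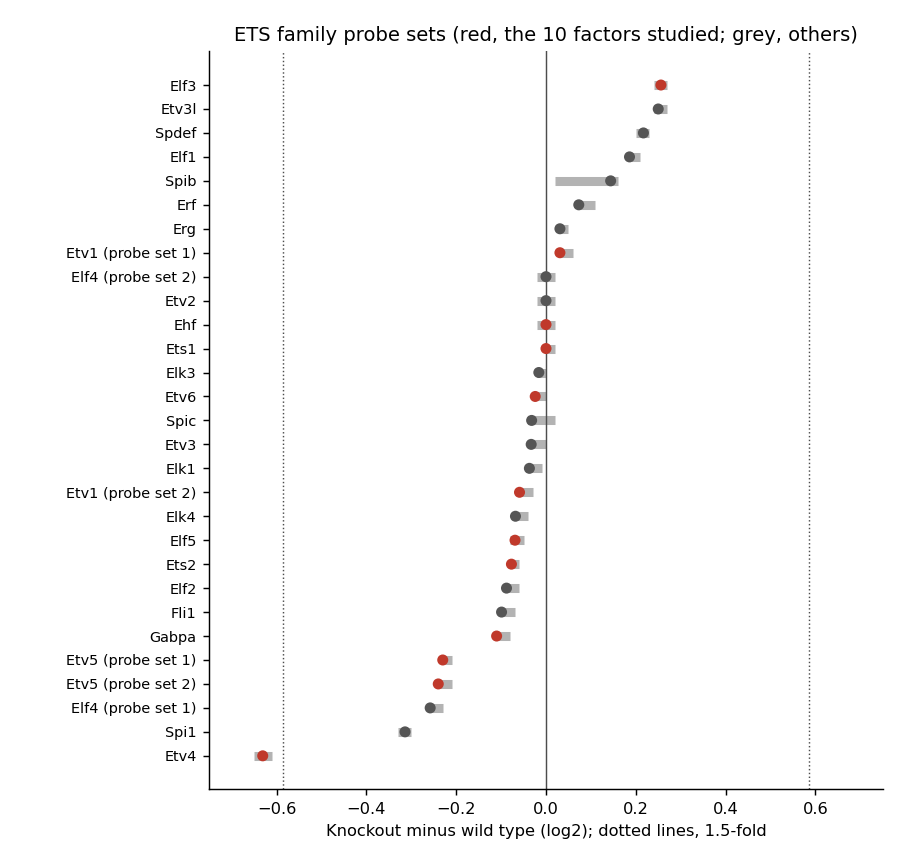
Difference between knockout and wild type (log2) of 29 ETS probe sets in order of their value, with the 10 factors in red and the rest of the family in grey. Grey bars span the values over 4 other scalings and the deposited values. Etv4 is the only point outside the dotted 1.5-fold lines, and Elf3 at 0.26 is the highest point.

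Genes that act on PEA3 factors were close to equality. Of 12 partners and regulators, all bright, 1 was higher, 8 were lower and 3 were equal, with a range of -0.12 to 0.08 and none past 1.5-fold (0.266% of all genes). With equal medians 7 were higher and 5 lower, so the split carries no direction. Cic, the repressor that keeps PEA3 genes off until ERK relieves it, was at 9.54 on both arrays. Its partners Atxn1 and Atxn1l differed by -0.12 and -0.02. Cop1 and Det1, parts of a ubiquitin ligase that removes PEA3 proteins, differed by -0.05 and -0.03, and the adaptors Trib1 and Trib2 by 0.08 and -0.01. The coactivators Ep300 and Crebbp were equal on both arrays. Of the partner subunits of Gabpa, Gabpb1 differed by -0.10 and Gabpb2 by -0.00.

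Fgf10 had the largest difference in the pathway above the PEA3 factors. Of 26 genes from FGF ligands to ERK, 20 were matched, of which 3 were higher, 13 lower and 4 equal, with a median of -0.020 and 0 past 1.5-fold (0.266% of all genes). Fgf10, the ligand of the bud mesenchyme, stood at 9.84 in wild type and 10.24 in knockout (0.40). Fgf9, made by epithelium and mesothelium, differed by -0.19, and the receptor gene Fgfr2 by -0.11. Among 19 genes that respond to FGF and ERK, 7 were higher, 9 lower and 3 equal, with a median of 0.000. Ier3 and Fosl1 had the largest sizes at -0.44 and 0.38, both below the array medians, and the feedback inhibitors Spry2 and Dusp6 differed by -0.12 and -0.01. Signs of values this small depended on the scaling: with arrays shifted to equal medians, 10 genes of the pathway and 13 response genes were higher.

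Of 5 genes listed for a link to Etv4 and Etv5 in other organs, whatever its direction, Shh was the furthest from equality. It stood at 9.52 in the wild type pool and 9.11 in the knockout pool, a difference of -0.41, which is larger in size than either Etv5 value. The difference was 0.12 for Myb and -0.03 for Met, while Mmp14 and Cxcr4 held identical values in both pools. Of the 5 genes 0 passed 1.5-fold, against 0.266% of all genes. The list set no sign for any gene, so these values were not compared with a predicted direction.

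**Figure D4:**
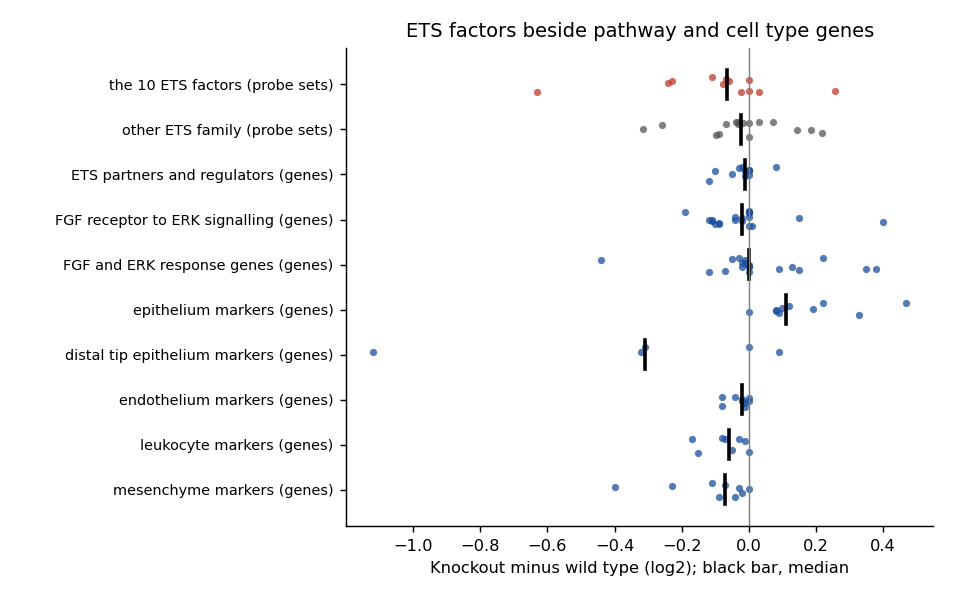
Difference between knockout and wild type (log2) of each probe set or gene, by list, with the median as a black bar. Points of the 10 ETS factors run from -0.63 to 0.26, those of the partners and regulators from -0.12 to 0.08, and 9 of 10 epithelial markers lie above 0.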

How the data were processed

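Per the labels' protocols, total RNA was purified on columns and read as biotin-labelled target on Affymetrix arrays, with 3 samples pooled per group. The authors' deposited values, 1 per probe set and array, were taken as log2 values from their range. Log base, summary method, normalization and genome build are not given in the sources used here. They were used as deposited, without floor or offset. Names of probe sets came from the annotation of the platform (21789 with 1 symbol, 1621 with several, 12147 with none), and RefSeq (GRCm38.p6) served for chromosomes and upstream windows. List genes (138 of 150 matched) were represented by their brightest probe set. Called means at least 2-fold or 1.5-fold (log2 0.58).

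The members and lists were chosen with earlier results of these data known. Named were all ETS genes and, of other lists, genes past 1.5-fold or those with the largest size. Further partner, pathway and marker genes were named for their roles after their values were seen. No gene was named for a like pattern, which 2 arrays cannot show.

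Alternatives were equal medians, quantile, loess (span 0.3), a floor at the 25th percentile, bright probe sets only, 1 value per gene, a mean over the probe sets of a gene, and added several-symbol probe sets (0 found). Only the scalings and the 2-fold call were tested on simulated data. The planted changes there were larger than any ETS difference reported here, and no values were made equal. The other steps were not tested in this way. Work was done in Python 3.11.15 with pandas 2.3.3, numpy 2.4.6, statsmodels 0.14.6 (loess), scipy 1.17.1 and matplotlib 3.10.9.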

Additional observations from a re-analysis of the deposited data

How the results depend on the processing

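No paired analysis was possible because each group has 1 array, and for the same reason none was left out in turn. Over the deposited values and 4 other scalings, Etv4 lay between -0.65 and -0.61, the Etv5 probe sets between -0.24 and -0.21, Elf3 between 0.24 and 0.27, and the Etv1 probe sets between 0.03 and 0.06 and between -0.06 and -0.03. The signs of Etv6, Ehf, Elk3, Etv2, Spic and the dim Elf4 probe set were not kept. The count of 2 higher member probe sets was 4 with equal medians and 4 with quantile scaling, which shift the median of all probe sets by 0.017 and 0.009. That count was 1 without the 2 probe sets numbered among another chromosome, a setting chosen after seeing the data. The count of 1 past 1.5-fold was 0 with bright probe sets only. Etv4 missed that cut narrowly, at 7.59 in wild type against the array median of 7.60. Elf3, at 7.50 in wild type, passed it only through its knockout value. The leukocyte median was -0.119 with bright genes only, which keeps 4 of 8 genes. Of 114 alternative values that answer a comparison, 109 stayed within the limits set (1.5 times for counts, 0.04 for log2 values) and 5 did not. Of the further alternative values, for single ETS probe sets and for the higher, lower and 1.5-fold counts of each list, 306 stayed within them and 32 did not. Signal near or below the array median limits Etv4, Elf3, Elf5, Ehf and Spi1.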
